A study of Homo sapiens with 12 samples.

Results

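TC71 and TC32 were compared with each other after mithramycin, on the 6 treated arrays of a 12-array series, over every probe set that carries 1 gene symbol. Both are established human lines grown from Ewing sarcoma, a tumour of bone and soft tissue. The treated cells, 3 TC71 and 3 TC32 cultures, had received 100 nM mithramycin for 6 h. The other 6 arrays, 3 of each line with solvent control for the same 6 h, gave the line difference without drug as background. The labels describe the 3 arrays of a group as biological replicates, 1 culture per array. Each line stands for itself only, so line and any other lasting difference between these cultures cannot be told apart. Of the 54675 probe sets, 41032 were used, and each of the 19740 genes was represented by the set brightest on average over all arrays.

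Most Ewing sarcomas carry a fusion of the RNA-binding protein gene EWSR1 with the ETS factor gene FLI1. The fusion protein switches on a set of genes through GGAA repeats and represses others, many of them genes of mesenchymal cells. Mithramycin is an antibiotic that binds GC-rich DNA in the minor groove, displaces Sp factors from GC boxes and is known to reduce the activity of the fusion protein. Lines of 1 tumour type can still differ in lineage factors, adhesion proteins and signalling, and the comparison asks which of these differences are present after the drug.

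Arrays within a group correlated at 0.9948 or higher, and the medians of the log2 values lay between 4.38 and 4.47. Of 15 measured Ewing sarcoma marker genes, 14 had a mean of at least 6 in each line with mithramycin. Of 12 blood cell markers, 0 reached that level in any group. With mithramycin, markers with such a mean numbered 3 of 19 neural ones in TC32 and 5 in TC71, 9 of 16 and 8 of 16 fibroblast and mesenchymal ones, 2 of 15 epithelial ones in each line, and 1 of 12 and 0 of 12 endothelial ones. The summed linear level of the neural markers ran from 5033 to 5325 on the TC32 arrays and from 6281 to 6439 on the TC71 arrays, and that of the fibroblast and mesenchymal markers from 10720 to 11340 and from 8656 to 8944. The part of these levels in the line differences was not tested. The 3' minus 5' difference of the beta-actin control sets, a measure of RNA integrity, was 0.60 ± 0.08 (SD, n = 3) in TC32 and 0.88 ± 0.10 in TC71 with mithramycin (exact two-sided permutation p = 0.1, the smallest that 3 against 3 allows). The hybridization controls, added at fixed amounts, averaged 10.00 in TC32 and 9.70 in TC71, a difference of -0.30. With that beta-actin value added as a covariate, 9685 of the 10441 genes called below were called in the same direction. The treated arrays of the lines do not overlap in this value, and its spread within groups lies mainly in the TC71 controls. The covariate can therefore hardly separate RNA integrity from line here.

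With mithramycin, 5224 of the 19740 genes (26.5%) were called higher in TC71 and 5217 (26.4%) lower, at a limma adjusted p under 0.05. The difference was called and at least 2-fold for 1504 genes higher in TC71 (7.62%) and for 985 lower (4.99%). The median line difference was -0.05 on the log2 scale, and its median size was 0.24. The 3 arrays of 1 line did not overlap the 3 of the other for 11480 genes (58.2%). Over single probe sets, 19483 of 41032 were called (47.5%). Higher genes made up 50.03% of the calls with the deposited scaling. Centring each array on the hybridization controls moved the median to 0.25, with 9247 genes called higher and 2120 lower, so higher genes then made up 81.35%. Under that centring 7344 of the 10441 calls kept their direction. Directions are therefore given relative to the deposited scaling, and line differences between -0.30 and 0 turn positive when the hybridization controls are set equal.

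The genes that were highest in TC71 relative to TC32 were near or below the array median in TC32. UTS2, which encodes the vasoactive peptide urotensin 2, read 3.04, 3.84 and 2.70 on the TC32 arrays and 11.77, 11.77 and 11.85 on the TC71 arrays. The gene was bright on each TC71 array and dim on each TC32 array, a difference of 8.60 ± 0.23 (SE, n = 3 per line, adjusted p = 1.21e-11). CTCFL, a germline paralogue of the insulator protein CTCF, read 2.11, 2.28 and 2.83 in TC32 against 9.95, 10.09 and 9.91 in TC71. HENMT1, which methylates the ends of piRNAs, read 3.40, 3.75 and 3.85 against 10.91, 10.91 and 10.83. NEFH, the heavy neurofilament subunit, read 3.88, 4.41 and 3.67 against 10.97, 11.17 and 11.19. The last 3 differed by 7.57 ± 0.16, 7.21 ± 0.12 and 7.12 ± 0.23. Further genes in this class had varied roles. They were PRTFDC1 (7.0), TAGAP (6.95), RNF135, a ubiquitin ligase of the RIG-I pathway (6.88), the stathmin gene STMN4 (6.32), the carbonic anhydrase gene CA2 (6.30), the secreted protein gene CYTL1 (6.23), the imprinted zinc finger gene PLAGL1 (5.96), the ubiquitin ligase gene RNF128 (5.92), the vasopressin receptor gene AVPR1A (5.84), FAM241A (5.78) and the protocadherin gene PCDH8 (5.78). The adjusted p of the 15 genes ran from 7.45e-14 to 1.6e-10. The probe sets of 1 gene did not always show the difference: 1 of 5 sets of AVPR1A stood at -0.07 and 1 of 2 sets of FAM241A at 0.06.

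The genes that were lowest in TC71 included several of development, matrix and chemokine signalling. OTX2, a homeobox factor of the forebrain and retina, read 10.68, 10.72 and 10.64 on the TC32 arrays and 1.98, 1.97 and 2.20 on the TC71 arrays. TC32 was bright and TC71 at the bottom of the scale, a difference of -8.63 ± 0.08 (adjusted p = 1.01e-14). The chemokine gene CXCL14 read 11.25, 11.13 and 11.15 against 3.17, 3.31 and 3.57, a difference of -7.83 ± 0.22. ACKR3, a receptor that scavenges CXCL12, read 9.96, 10.07 and 9.99 against 2.83, 3.21 and 2.56. TNC, the matrix protein tenascin C, read 11.33, 11.43 and 11.17 against 4.68, 4.29 and 4.24. CCK, the peptide hormone cholecystokinin, was the next in size, with 11.56, 11.48 and 11.53 against 4.89, 4.73 and 4.70. These 3 differed by -7.14, -6.91 and -6.75. Below them came SYTL5 (-6.63), the sphingosine-1-phosphate receptor gene S1PR3 (-6.57), the matrix gene TGFBI (-6.52), CARD16, a regulator of caspase-1 (-6.48), TCIM (-6.44), the serpin gene SERPINB5 (-6.33), the neural adhesion gene NTM (-6.31), the proteoglycan gene SRGN (-6.30), FABP7, a fatty acid-binding protein of glia (-6.27), and SMIM31 (-6.24). The adjusted p of these 15 genes ran from 1.01e-14 to 7.51e-11. In the line where a gene is this dim its value is close to background, so the size of such a difference is rough. Of the 3 probe sets each of ACKR3 and NTM, 1 stood at 0.03 and 0.01.

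**Figure D1:**
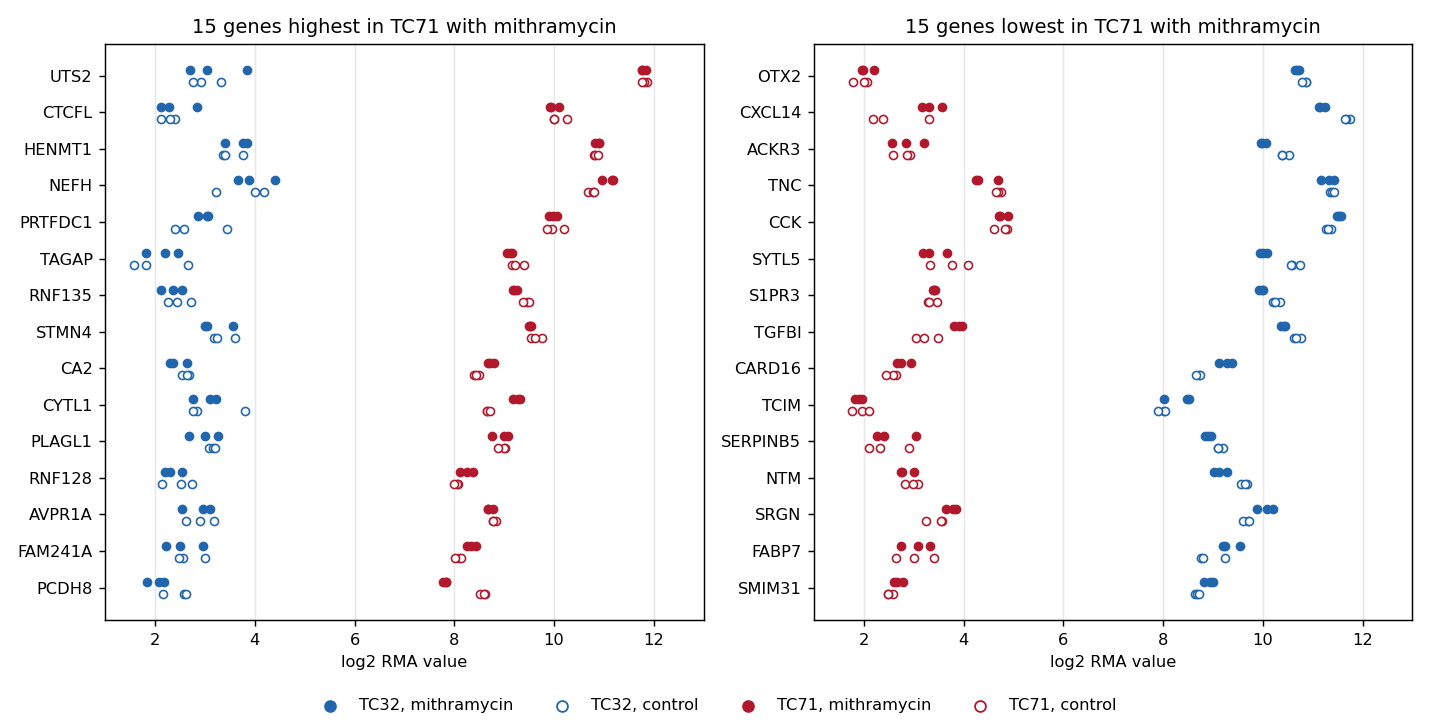
Log2 values (x axis) of the 15 genes highest (left) and the 15 lowest (right) in TC71 relative to TC32 with mithramycin, 1 point per array, filled for mithramycin and open for solvent control, blue for TC32 and red for TC71. The genes were chosen for arrays that do not overlap with mithramycin, and the open points of each line lie close to its filled points, as for UTS2 and OTX2.

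The line difference without drug, measured on the other 6 arrays, was close to that with mithramycin for most of these 30 genes. Its change with the drug was called for CA2, CXCL14, S1PR3 and TGFBI, and for the first 3 of these the call was lost in 4 to 7 of 12 fits leaving out 1 array each (0.44 to 0.48, 1.01 to 1.25 and 0.31 to 0.34). In solvent control 5269 genes were called higher in TC71 (26.7%) and 4902 lower (24.8%). With centring on housekeeping genes, whose median was higher in TC71 than in TC32 in control (11.46 against 11.24), these counts were 3511 and 9542. That shift of the median ran against most of the 13 genes it was taken from, of which 2 were called higher and 8 lower in TC71 in control, with a median gene difference of -0.29. Across the 19740 genes the 2 line differences correlated at 0.95 (Pearson) and 0.85 (Spearman), and at 0.96 and 0.93 over the 8384 genes whose mean reached 6. The genes are not independent replicates and the 2 differences share no array. Of the 1504 genes at least 2-fold higher in TC71 with mithramycin, 1488 (98.9%) were called higher in control and 1255 (83.4%) were 2-fold higher there. Those 1255 were 82.1% of the 1529 genes 2-fold higher in control. Of the 985 at least 2-fold lower, 975 (99.0%) were called lower in control and 861 (87.4%) were 2-fold lower there, which is 77.2% of the 1115 in control. Among the 2-fold differences with mithramycin, 1 gene was called the opposite way in control and 25 were not called there, 15 of them higher and 10 lower with the drug.

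Whether a line difference changed was tested as the difference of the line differences, mithramycin minus control, which uses all 4 groups. It was called positive for 1239 genes (6.28%) and negative for 734 (3.72%). The line difference was larger in size with mithramycin for 884 of these genes and smaller for 1089. In 122 it was called in both conditions with opposite direction, in 317 it was called with mithramycin alone and in 294 in control alone. Of the 1239 positive genes, the larger of both drug effects was a lower level in TC32 for 950 and a higher level in TC71 for 289. Of the 734 negative genes it was a lower level in TC71 for 374 and a higher level in TC32 for 360. The balance of signs depended on the scaling: centring on housekeeping genes, with the shift just described, gave 2791 positive and 217 negative calls, and centring on hybridization controls 2528 and 189. The beta-actin covariate gave 797 and 407. Its value was higher and more spread in the TC71 controls (1.45 ± 0.48) than in the TC32 controls (0.71 ± 0.04).

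**Figure D2:**
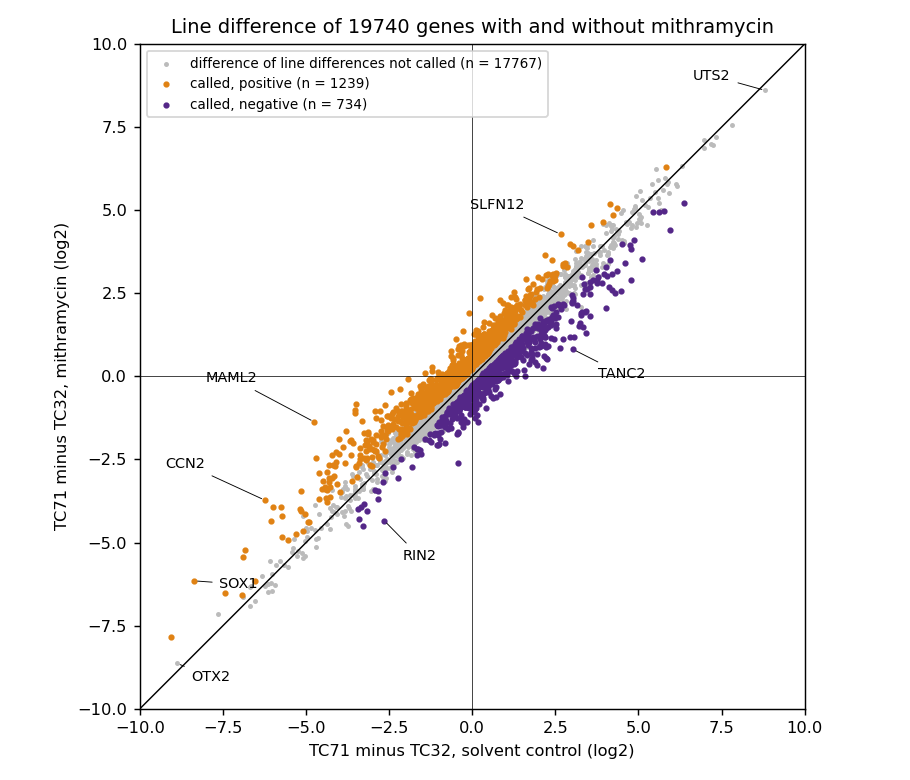
Line difference (TC71 minus TC32, log2) of each of the 19740 genes in solvent control (x axis) and with mithramycin (y axis), with the line of equal values. Orange points (1239) and violet points (734) are genes whose difference of line differences was called positive or negative, and grey points are the other genes, most of which lie along the diagonal.

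The RefSeq promoters of 4 genes are shown because these genes mark how a line difference could change: IGF1R and KLHL29 differed more with mithramycin, MAML2 and CCN2 less. They were chosen after their values were seen, and the change of KLHL29 was -0.20 and not called with the mean of its probe sets. Each is the 250 bases before the RefSeq start of the gene, on the strand of the gene in build GRCh38.p14, at chr15:98648289-98648538 (plus strand), chr2:23384929-23385178 (plus), chr11:96343196-96343445 (minus) and chr6:131951373-131951622 (minus). Capitals mark GC boxes, GGGCGG on either strand, overlapping matches included, which are known binding letters of Sp factors.
IGF1R: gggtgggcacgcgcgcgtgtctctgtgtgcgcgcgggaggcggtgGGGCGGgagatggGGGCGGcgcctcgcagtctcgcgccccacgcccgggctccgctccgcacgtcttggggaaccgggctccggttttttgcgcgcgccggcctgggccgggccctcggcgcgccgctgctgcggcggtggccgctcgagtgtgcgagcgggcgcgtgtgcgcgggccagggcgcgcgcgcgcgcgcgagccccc
KLHL29: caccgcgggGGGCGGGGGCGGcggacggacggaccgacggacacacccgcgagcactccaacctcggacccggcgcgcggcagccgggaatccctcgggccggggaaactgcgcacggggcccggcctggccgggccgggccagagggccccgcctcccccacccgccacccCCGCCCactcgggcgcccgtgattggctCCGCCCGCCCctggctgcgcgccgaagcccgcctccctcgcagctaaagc
MAML2: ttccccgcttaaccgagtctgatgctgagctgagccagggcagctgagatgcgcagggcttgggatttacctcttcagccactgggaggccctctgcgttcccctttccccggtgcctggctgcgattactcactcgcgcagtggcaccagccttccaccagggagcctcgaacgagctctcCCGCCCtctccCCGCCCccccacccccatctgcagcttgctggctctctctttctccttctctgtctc
CCN2: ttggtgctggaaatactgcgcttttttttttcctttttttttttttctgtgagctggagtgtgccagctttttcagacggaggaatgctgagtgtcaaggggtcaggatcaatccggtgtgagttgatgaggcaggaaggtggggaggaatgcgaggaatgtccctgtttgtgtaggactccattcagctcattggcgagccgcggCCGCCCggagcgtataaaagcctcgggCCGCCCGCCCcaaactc

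The printed stretches hold 2, 5, 2 and 3 GC boxes and 81.2%, 80.4%, 63.6% and 53.2% G and C. In the full RefSeq windows of 300 bases, from 250 before to 50 after the start, at least 1 such box stood in 59.2% of the 11459 genes with exactly 1 window and in 74.8% of those whose mean reached 6. It was 69.3% for genes with a positive and 68.5% for genes with a negative difference of line differences. It was 69.0% for genes at least 2-fold higher in TC71 with mithramycin and 68.4% for those at least 2-fold lower. All 4 shares lie above that of all genes and below that of the brighter genes. A match says only that these letters stand in the window.

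Receptors and ligands of growth factor signalling were more often lower in TC71. Of 70 measured genes, 9 were called higher and 37 lower with mithramycin, 9 and 35 in control, and the median difference was -0.25 against -0.05 for all genes. With hybridization centring the list had 18 higher and 24 lower. Its difference of line differences was called positive for 13 and negative for 2, against 6.28% and 3.72% of all genes. Among the 8384 genes whose mean reached 6, tested alone, it was positive for 1244 and negative for 765, with 6 and 2 of 26 list members there. For this and each later list, the background of line calls with mithramycin is 26.5% higher and 26.4% lower over all genes. Brighter genes were called more often: of those 8384, tested alone, 3730 were called higher and 3088 lower. A list made up mostly of bright genes is better set beside these counts. IGF1R, the receptor for insulin-like growth factors, read 7.31, 7.52 and 7.38 in TC32 and 6.29, 6.14 and 6.42 in TC71 with mithramycin. All 3 TC71 arrays were below all 3 TC32 arrays, a difference of -1.12 ± 0.08 (adjusted p = 1.38e-07). In control the group means were 8.48 in TC32 and 8.42 in TC71, and the difference of line differences was -1.05 (adjusted p = 1.42e-04). Of the 5 probe sets of IGF1R, 3 were called lower and the weakest stood at 0.02. Among other receptors lower in TC71, NTRK2, the BDNF receptor, stood at -5.55, with 1 of its 6 probe sets at 0.01. The stem cell factor receptor gene KIT stood at -4.91. FGF13 stood at -3.90 and IGFBP5, which binds insulin-like growth factors, at -4.75. Higher in TC71 were EPHA3, an ephrin receptor (3.28, with 1 of its 3 sets at -0.04), PDGFD (2.76), the receptor gene FGFR3 (2.06) and IRS2, which couples insulin and IGF receptors to PI3-kinase (1.80). VEGFA, the vascular growth factor, read 7.87, 7.75 and 7.79 in TC32 and 7.91, 7.84 and 7.83 in TC71, so the arrays overlapped, and its difference of 0.06 ± 0.07 was not called (adjusted p = 0.508).

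The TGF-beta and BMP pathway leaned the other way. Its ligands signal through paired serine-threonine kinase receptors to SMAD factors, and ID genes are among the targets. Of 42 measured genes, 23 were called higher in TC71 and 9 lower, against 26.5% and 26.4% of all genes. The counts were the same in control, and the median difference with mithramycin was 0.37. ID4, an inhibitor of helix-loop-helix factors, read 6.10, 6.52 and 6.35 in TC32 and 10.62, 10.63 and 10.61 in TC71, a difference of 4.29 ± 0.10. The BMP family ligand gene GDF10 was at 5.23, the receptor gene ACVR2A at 1.90 and NOG, a secreted BMP antagonist, at 1.75. GDF10 differed less than in control, where it stood at 6.37, and NOG more, from 0.82. BAMBI, a decoy receptor, and ID2 were lower in TC71, at -0.45 and -0.24, each less so than in control (-1.37 and -0.94). The ID2 difference was 0.06 with hybridization centring. TGFBR2, the type II TGF-beta receptor and a known target of repression by the fusion, was lower in TC71, at -1.76 (control -2.62), with 1 of its 2 sets at -0.22.

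Of 60 Notch and Wnt genes, 16 were called higher and 22 lower, against 15 and 22 in control (23 and 12 with hybridization centring). Over all genes 26.5% were called higher and 26.4% lower with mithramycin, so the share called higher was near that of all genes. LEF1, a nuclear partner of beta-catenin, read 3.62, 3.20 and 3.87 in TC32 and 8.23, 8.12 and 7.99 in TC71. Every TC71 array was bright and every TC32 array dim, a difference of 4.55 ± 0.16, although 1 of its 3 probe sets was called lower at -0.29. DKK2, a secreted Wnt modulator, stood at 3.08 with its other set at -0.04, and the receptor genes FZD7 and FZD5 at 2.14 and 2.34. HEY1, a transcriptional target of Notch, was 1.54 ± 0.05 higher in TC71 with mithramycin and 0.72 higher in control. Lower in TC71 were FRZB (-4.86), a secreted Wnt antagonist with 1 of 4 sets at 0.00, the R-spondin receptor gene LGR5 (-4.20, control -5.73) and the ligand gene WNT5A (-2.26, control -2.62). DKK1, another Wnt antagonist, was at -3.93 with mithramycin and -5.99 in control.

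Transcription factors of development separated the lines in both directions. Of 28 measured HOX genes, 10 were called higher and 11 lower in TC71 with mithramycin, against 6 and 16 in control (15 and 6 with mithramycin under hybridization centring). Their difference of line differences was positive for 8 and negative for 1, against 6.28% and 3.72% of all genes. HOXD13, the last gene of the HOXD cluster, read 8.04, 8.29 and 8.18 in TC32 and 9.64, 9.68 and 9.64 in TC71, a difference of 1.48 ± 0.06 against 0.80 in control. HOXD4 and HOXD8 were called higher in TC71 with mithramycin, at 0.76 and 0.37, and stood at -0.31 and 0.00 in control. Both changes of the line difference were called (adjusted p = 6.17e-04 and 0.0283), but that of HOXD8 was lost in 8 of 12 fits leaving out 1 array each (0.30 to 0.37), and the other set of HOXD4 stood at 0.02. HOXC8 was 1.07 higher in TC71. HOXB2 (-0.70, control -1.31), HOXB3 (-1.76, control -1.04), HOXB9 (-0.96) and HOXC10 (-0.89) were lower. HOXB3 and HOXB2 are neighbours in 1 cluster, and their line differences moved in opposite directions with the drug, by -0.72 and 0.61.

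Of 84 other homeobox, T-box, PAX, SOX and GATA factors, 33 were called higher and 28 lower, close to the 31 and 31 in control. SIX3, a forebrain homeobox gene, read 3.87, 3.77 and 3.61 in TC32 and 7.64, 7.71 and 7.66 in TC71, a difference of 3.92 ± 0.07 (control 3.03, a change that stood at -0.01 without the _x_at and _s_at sets). PAX7, a factor of muscle and neural crest precursors, read 3.54, 3.29 and 3.19 against 6.75, 6.66 and 6.85. That difference of 3.42 was smaller than the 4.61 in control, where TC71 averaged 8.76. The factor genes GATA3 and SNAI2 were 3.22 and 2.98 higher in TC71. TBX5, a T-box factor of heart and forelimb, read 8.72, 9.09 and 8.75 in TC32 and 3.86, 3.81 and 3.24 in TC71, a difference of -5.22 ± 0.16. It was -6.84 in control, and the TC32 mean was 10.07 there. SOX11 stood at -4.15 (control -5.05, a change of 0.39 and not called with the mean of its probe sets) and ZIC1, a zinc finger gene of the neural tube, at -4.38 (control -4.91). For the list as a whole the difference of line differences was positive for 22 and negative for 2 of the 84 genes, against 6.28% and 3.72% of all genes.

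Of 65 collagen and matrix genes, 13 were called higher and 31 lower in TC71, with a median of -0.18 (22 and 20 with hybridization centring). FN1, the matrix protein fibronectin, read 12.89, 12.85 and 12.82 in TC32 and 6.85, 6.60 and 6.64 in TC71. Its difference was -6.16 ± 0.07 and all 7 probe sets were called lower. The collagen gene COL11A1 (-5.67) and LOXL1, a cross-linking enzyme (-5.72), were lower as well. DCN, the proteoglycan decorin, ran the other way, with 4.19, 3.75 and 4.17 in TC32 and 8.72, 8.51 and 8.56 in TC71. The collagen genes COL21A1 (3.64), COL4A5 (3.34) and COL5A2 (2.16) were also higher in TC71, but 1 of the 2 sets of COL4A5 stood at -0.05 and DCN had 4 of 7 sets called. Of 70 cadherin, protocadherin and adhesion genes, 15 were called higher and 28 lower (23 and 15 with hybridization centring). NCAM1, a neural cell adhesion molecule, read 9.16, 9.03 and 9.05 in TC32 and 3.14, 3.65 and 3.78 in TC71, a difference of -5.56 ± 0.20 with 5 of 7 sets called. PCDH19 stood at -3.61, the teneurin gene TENM1 at -3.43 and ALCAM at -3.25. ITGA4, an integrin alpha chain, read 2.90, 2.85 and 2.70 in TC32 and 7.46, 7.41 and 7.33 in TC71. Its 4 sets were all called higher, and CDH12 (3.38) and PCDH9 (2.94) were higher too. PCDH9 was 1.61 higher in control, and its difference of line differences of 1.33 was called (adjusted p = 7.5e-04).

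Genes of immune signalling fell into groups that did not share a direction. Of 26 genes of MHC and antigen presentation, 5 were called higher and 14 lower in TC71, with a median of -0.31 (8 and 11 with hybridization centring). PSMB8, an immunoproteasome subunit, read 7.84, 8.04 and 7.97 in TC32 and 4.19, 4.41 and 4.25 in TC71, a difference of -3.67 ± 0.09. ERAP1 and ERAP2, which trim peptides for class I molecules, stood at -3.10 and -3.21, each with 3 of 5 sets called. HLA-DPB1 stood at -2.99 and HLA-DPA1, the alpha chain of the same class II dimer, at 3.33, with 3 of 3 sets called higher. HLA-E was 0.23 higher at its brightest set, and its 3 sets ran from -0.26 to 0.46. HLA genes resemble one another, so their probes can share signal. Of 38 interferon-stimulated genes, 16 were called higher and 12 lower, against 26.5% and 26.4% of all genes. IFI44 (5.53), HERC5 (3.86), IFIT1 (1.97) and the RNA sensor gene IFIH1 (1.78) were higher in TC71. TRIM22 read 8.53, 8.53 and 8.70 in TC32 and 2.10, 2.55 and 2.44 in TC71, and MX2 (-3.29), GBP1 (-3.06) and OAS3 (-1.25) were also lower. Of 41 cytokine, chemokine and NF-kB genes, 4 were called higher and 14 lower (11 and 11 with hybridization centring). CXCR4, the chemokine receptor for CXCL12, stood at -4.88 and the alarmin gene IL33 at -4.91, while NFKBIA, the inhibitor of NF-kB, was 1.08 higher at 1 of its 2 sets (0.13 at the other). The inflammasome gene CASP1 read 7.99, 8.04 and 8.05 in TC32 and 3.96, 3.84 and 4.32 in TC71, a difference of -3.99 ± 0.10.

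Germline genes of the cancer-testis class and genes of neuroendocrine granules were divided. Of 38 germline genes, 9 were called higher and 6 lower, and 23 were not called. Beside CTCFL, the X-linked antigen gene MAGEA1 (5.59), the meiotic gene TEX15 (4.54), MAGEA6 (3.06) and PRAME (2.21) were higher in TC71, and SSX1 (-1.78) and LIPI (-1.56) were lower. MAGEA genes are close copies of one another, so probes for 1 member can read another. Only 7 of the 38 had a mean of at least 6 in either line with mithramycin, against 9156 of all 19740 genes, so a change in most could hardly be called. The difference of line differences was called for 0 of the 38 with either sign, against 6.28% and 3.72% of all genes. At limma's unadjusted p under 0.05 it was positive for 2 and negative for 1, and 3 were called positive with either centring. Of 41 neuroendocrine granule and neuropeptide genes, 12 were called in each direction. POMC, the precursor of ACTH, read 4.25, 4.06 and 4.02 in TC32 and 7.99, 7.98 and 8.10 in TC71, a difference of 3.91 ± 0.14. CALCB (4.73), NPW (3.43) and the receptor gene NPY1R (3.42, control 2.78) were also higher, and the nociceptin precursor gene PNOC (-3.13) and ADM, the peptide adrenomedullin (-2.99, control -4.14), were lower. The light and medium neurofilament genes NEFL (5.20) and NEFM (2.34, with its other set at -0.02) were higher in TC71 together with NEFH. Of all 19 measured neural markers, 4 were called higher and 8 lower.

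Known targets of the fusion protein were examined as 2 lists. Of 52 measured genes that the fusion switches on, 23 were called higher and 19 lower in TC71 with mithramycin, against 20 and 21 in control. The shares of all genes with mithramycin were 26.5% and 26.4%. However, 41 of the 52 had a mean of at least 6 in either line with mithramycin. Of the 8384 genes whose mean over all arrays reached 6, 3730 were called higher and 3088 lower. The shares of this list were near those of such bright genes. Of 39 genes that it represses, 8 were called higher and 22 lower, with a median of -0.53, against 7 and 22 in control (9 and 16 with hybridization centring). The difference of line differences was positive for 12 and negative for 1 of the repressed genes, against 6.28% and 3.72% of all genes. Among the 8384 genes whose mean reached 6, tested alone, 1244 were positive and 765 negative, with 9 and 3 of 20 repressed genes there. NKX2-2, a homeobox factor needed for transformation by the fusion, read 8.45, 8.37 and 8.37 in TC32 and 7.39, 7.24 and 7.20 in TC71. The difference was -1.12 ± 0.06, against -1.93 in control, where TC32 averaged 9.04 and TC71 7.11. CCND1, cyclin D1 of the G1 phase, read 11.24, 11.18 and 11.12 in TC32 and 9.70, 9.63 and 9.61 in TC71. Its difference of -1.53 ± 0.06 was larger in size than the -0.81 in control (adjusted p = 1.42e-04 for the change). CD99, the surface protein used to diagnose the tumour, differed by -1.10 with mithramycin and -1.08 in control. PAPPA, a protease that frees insulin-like growth factors, stood at -3.93 (control -3.34, a change that was 0.15 with the mean of probe sets) with 8 of 11 sets called, whereas STEAP2 and PPP1R1A, an inhibitor of protein phosphatase 1, were 1.73 and 1.47 higher in TC71. Among the repressed genes, CALD1, an actin-binding protein, was lower in TC71 at all 11 of its sets, by -3.86 ± 0.07 at the brightest.

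The genes of both fusion partners differed by less than 1 on the log2 scale. FLI1 read 7.20, 7.71 and 7.42 in TC32 and 8.11, 8.09 and 8.12 in TC71, a difference of 0.66 ± 0.10 (adjusted p = 1.38e-04), with 3 of 6 sets called higher. In control it was 0.23, and the change of the line difference was not called (adjusted p = 0.0921). EWSR1 read 9.82, 9.96 and 9.84 in TC32 and 9.66, 9.71 and 9.67 in TC71. That difference of -0.20 ± 0.06 was called (adjusted p = 0.0199) at the brightest set, yet the 4 sets of EWSR1 ran from -0.40 to 0.37. The difference stood at 0.37 without the _x_at and _s_at sets and at 0.10 with hybridization centring. The call was lost without TC32 replicate 2 or without TC71 replicate 1 or 3 of the mithramycin arrays (-0.15 to -0.19). The arrays do not separate the fusion transcript from the normal alleles. The GC-box factor SP1 read 8.24, 8.11 and 8.23 in TC32 and 8.51, 8.48 and 8.49 in TC71, a difference of 0.30 ± 0.06, and SP3 differed by 0.96 ± 0.09 with 2 of 5 sets called. Neither change from control (0.10 and 0.72) was called, at adjusted p = 0.189 and 0.283.

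**Figure D3:**
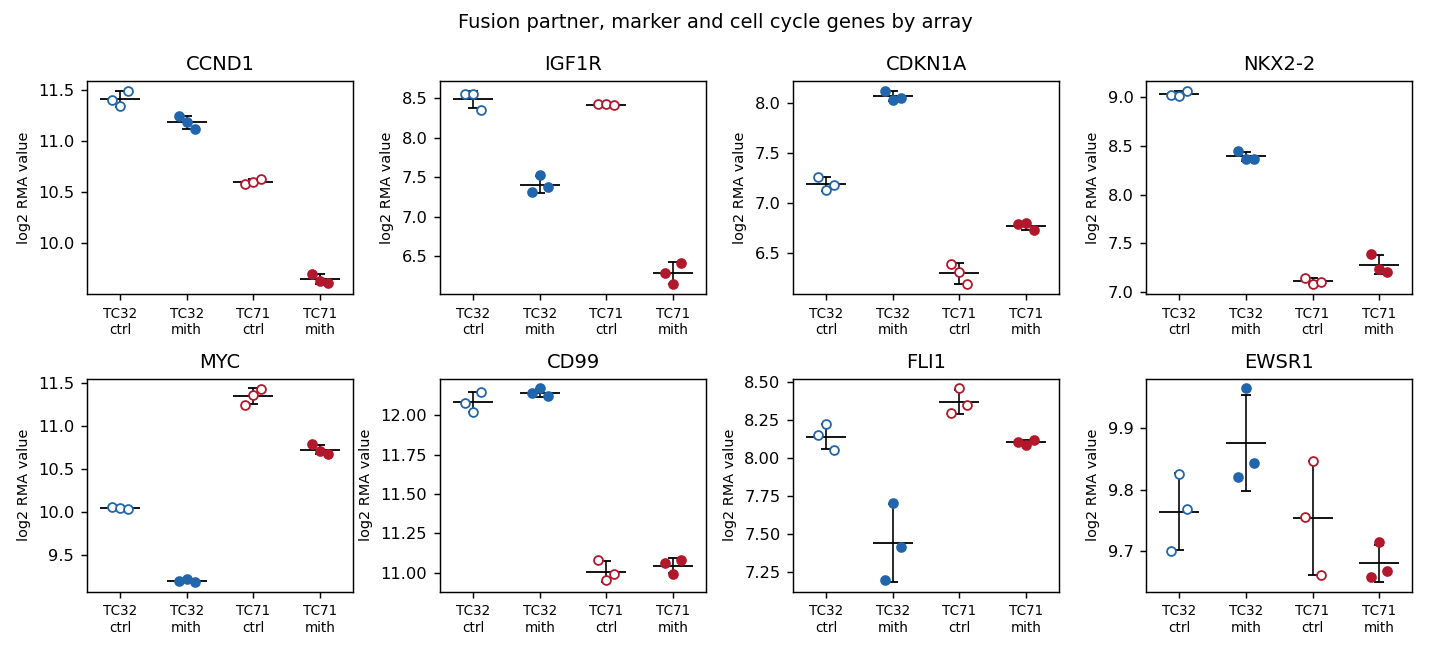
Log2 values (y axis, a separate range in each panel) of 8 genes, 1 point per array with the mean and SD of 3, blue for TC32 and red for TC71, open for solvent control and filled for mithramycin. IGF1R is nearly level between the lines in control (8.48 and 8.42) and separates with mithramycin, whereas CD99 keeps a gap of about the same size (-1.08 and -1.10).

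Targets of p53, a damage-responsive factor, split between the lines. Of 31 measured genes, 11 were called higher and 15 lower in TC71, against 10 and 15 in control. The shares of all genes with mithramycin were 26.5% and 26.4%. However, 25 of the 31 had a mean of at least 6 in either line with mithramycin, and bright genes were called more often. CDKN1A, the cell cycle inhibitor p21, read 8.12, 8.03 and 8.05 in TC32 and 6.79, 6.80 and 6.73 in TC71, with no overlap. The difference of -1.30 ± 0.06 compared with -0.90 in control. The change of -0.40 was called (adjusted p = 0.0132) but not with centring on housekeeping genes (-0.18), on hybridization controls (-0.17) or with the beta-actin covariate (-0.35). The polo-like kinase gene PLK2 stood at -3.66, the death receptor gene FAS at -1.82, CCNG1 at -1.79 (control -2.12) and PMAIP1, the BH3-only protein NOXA, at -1.48. Higher in TC71 were SESN1 (2.88, control 2.35), the death receptor gene TNFRSF10A (2.80, control 3.74), TP53I3 (2.53) and TP53INP1 (1.02, control 0.38). The change of TP53INP1 was not called with the mean of its probe sets (0.17) or with the beta-actin covariate (0.52). MDM2, the ubiquitin ligase of p53, was 0.61 ± 0.09 higher at the brightest of 10 sets, of which 5 were called higher and 1 lower.

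Immediate early genes code for short-lived mRNAs that respond within minutes to growth signals. They were listed together with other genes of short-lived mRNAs. Of the 38 measured genes of this joint list, 7 were called higher and 23 lower in TC71 with mithramycin. The counts were 7 and 25 in control, and 13 and 13 with mithramycin under hybridization centring. Their difference of line differences was positive for 16 and negative for 1, against 6.28% and 3.72% of all genes. The list's median of this difference was 0.25 against -0.02 for all genes. FOS, a subunit of AP-1, read 7.46, 7.59 and 7.47 in TC32 and 5.47, 5.39 and 5.28 in TC71. The line difference of -2.13 ± 0.08 compared with -3.90 in control, where TC32 averaged 8.51 and TC71 4.61. CCN2, a matricellular growth factor, stood at -3.73 against -6.24 in control, and the kinase gene SGK1 at -1.47 against -2.54. DUSP6, a phosphatase that turns off ERK, stood at -4.06 and -3.82, a change that was not called (adjusted p = 0.366). DUSP2 (2.11), ZFP36L2 (0.76, control 0.16) and JUNB (0.65) were higher in TC71. MYC, a growth-promoting factor, read 9.20, 9.22 and 9.19 in TC32 and 10.79, 10.72 and 10.68 in TC71. Its difference of 1.52 ± 0.06 was close to the 1.30 in control, and the change was not called (adjusted p = 0.112).

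The line difference moved towards TC71 with mithramycin for 12 of 40 genes of G2/M and mitosis and towards TC32 for 0, or for 7 and 0 with the beta-actin covariate. Over all genes the shares were 6.28% and 3.72%. These 40 genes all have a mean of at least 6, and bright genes were called more often. Among the 8384 genes with such a mean, tested alone, 1244 were called positive and 765 negative, with 16 and 0 of the 40. At limma's unadjusted p under 0.05 the counts of the 40 genes were 17 and 0, and leaving out 1 array gave 8 to 13 and 0. With the drug 19 of them were called higher and 10 lower in TC71, against 13 and 15 in control. Of the 8384 bright genes, 3730 were called higher and 3088 lower with the drug. The share of the 40 called higher was near that of the bright genes, and the share called lower was below it. PLK4, the kinase of centriole duplication, read 6.88, 6.87 and 6.87 in TC32 and 8.06, 7.96 and 7.86 in TC71, a difference of 1.08 ± 0.06 against 0.43 in control. STAG2, a cohesin subunit, was 2.0 higher in TC71 with mithramycin and 1.46 in control. The kinetochore motor gene CENPE stood at 0.97 (control 0.61), the survivin gene BIRC5 at 0.97 (control 0.84), CENPF at -0.56 (control -0.93, with 1 of 3 sets at -0.01) and TOP2A at -0.69. Of 42 genes of G1/S and DNA replication, 13 were called higher and 16 lower (21 and 5 with hybridization centring).

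Stress response genes were mostly lower in TC71. Of 33 unfolded protein and integrated stress response genes, 7 were called higher and 23 lower, against 6 and 25 in control, with medians of -0.35 and -0.49. With hybridization centring the counts were 8 and 12. The difference of line differences was positive for 10 and negative for 1, against 6.28% and 3.72% of all genes. SLC7A11, the cystine transporter, read 10.20, 9.99 and 10.16 in TC32 and 7.78, 7.63 and 7.72 in TC71, a difference of -2.41 (control -2.84), and TRIB3 stood at -0.80 (control -1.56). ATF4, the main factor of the integrated stress response, was 0.70 higher in TC71 with mithramycin and 0.26 in control. DDIT4, an inhibitor of mTORC1, read 5.45, 5.38 and 5.40 in TC32 and 8.51, 8.37 and 8.53 in TC71, a difference of 3.06 against 2.50. Of 35 hypoxia and glycolysis genes, 12 were called higher and 15 lower (17 and 9 with hybridization centring).

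Of 31 nuclear genes of oxidative phosphorylation, 17 were called higher in TC71 and 6 lower, against 21 and 5 in control, with a median of 0.14. NDUFB5 stood at 1.14 (control 1.53, a change not called with either centring or the beta-actin covariate) and NDUFA1 at -1.17, both accessory subunits of complex I. Of 19 genes of cholesterol synthesis, 11 were called higher and 5 lower, the same counts as in control, with SQLE, the squalene epoxidase, at 1.95 and NSDHL at -1.45. Cytosolic ribosomal protein genes differed less than the average gene, with 3 of 41 called higher and 11 lower (24 and 0 with hybridization centring) and a median size of 0.09 against 0.24 for all genes. Among 13 housekeeping genes, 2 were called higher and 9 lower (3 and 3 with hybridization centring).

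Genes of drug handling were divided. Of 54 measured, 23 were called higher and 21 lower, against 26.5% and 26.4% of all genes. The median was -0.05, that of all genes. ABCB1, the efflux pump P-glycoprotein, read 2.54, 2.26 and 2.22 in TC32 and 4.88, 4.70 and 4.81 in TC71, near the array medians in the higher line. Its difference was 2.46 ± 0.14 against 1.73 in control (adjusted p = 0.0422 for the change), a call lost in 8 of 12 fits leaving out 1 array each (0.56 to 0.78). ABCC1, another efflux pump, read 6.28, 6.38 and 6.40 in TC32 and 5.94, 5.95 and 5.90 in TC71. The difference of -0.42 ± 0.05 was called, whereas in control the means were 7.44 and 7.46. The change of -0.44 was called (adjusted p = 0.002) but not with either centring (-0.22 and -0.21), and the other set of ABCC1 stood at 0.18 with mithramycin. ABCA5 (3.71), the cytochrome P450 genes CYP26B1 (4.63, other set 0.03) and CYP1B1 (3.91, weakest of 4 sets 0.03) and the glutathione transferase gene GSTM3 (2.98) were higher in TC71. ALDH1A1, a retinaldehyde dehydrogenase, read 12.52, 12.63 and 12.56 in TC32 and 8.01, 7.97 and 7.81 in TC71. The reductase gene AKR1C3 (-4.43) and the carnitine and cation transporter gene SLC22A4 (-2.58) were lower too. Of 34 genes of the BCL2 family and apoptosis, 15 were called higher and 12 lower, among them XIAP at -1.19 with 7 of 7 sets and BCL2L2 at 1.28, against 0.35 in control, with 1 of 2 sets called.

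**Figure D4:**
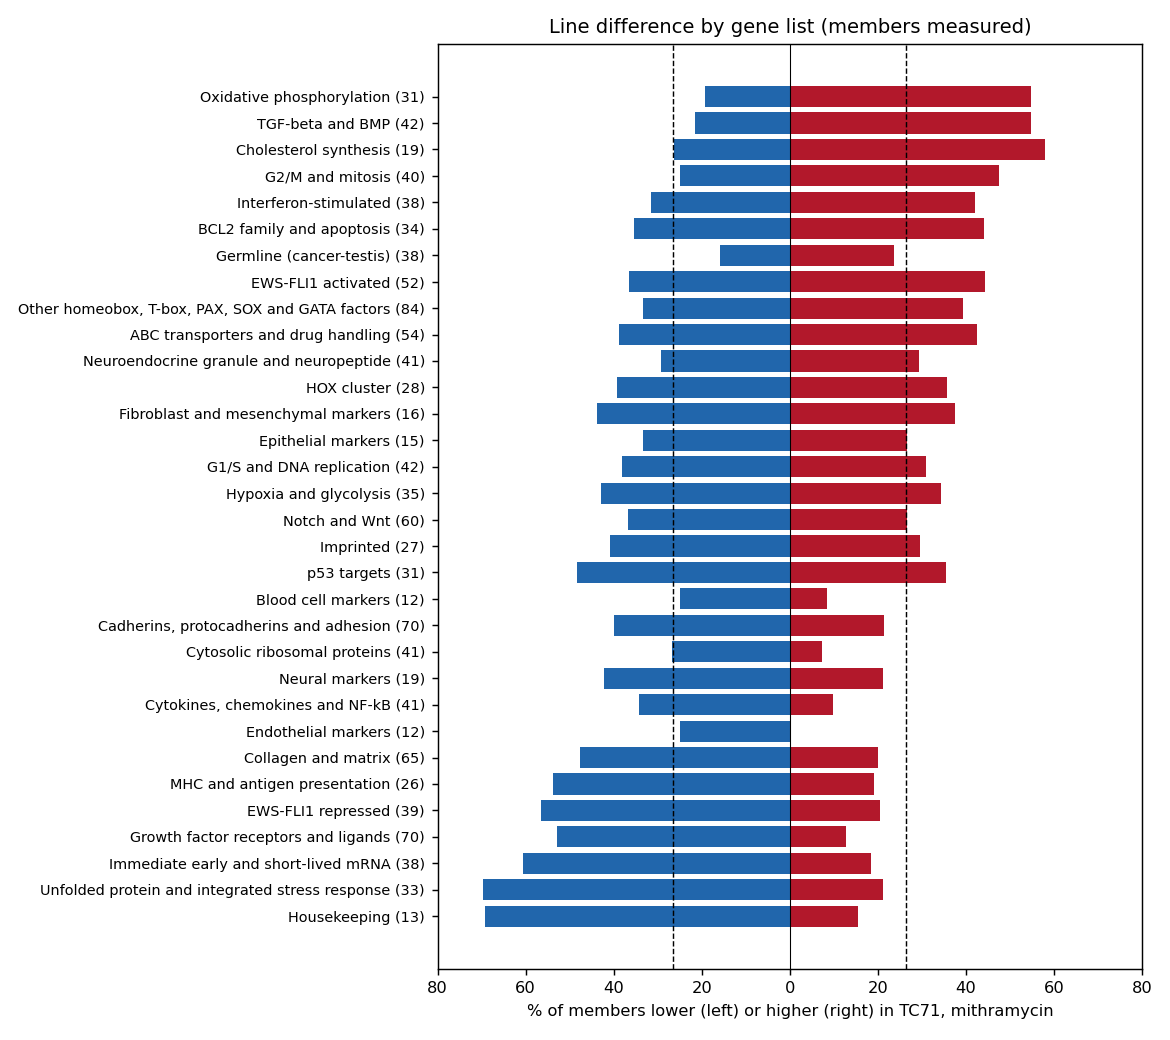
Percent of the measured members of each gene list that were called lower (blue, left) or higher (red, right) in TC71 with mithramycin, with the number measured in brackets. Dashed lines mark the share of all 19740 genes (26.4% lower, 26.5% higher). The stress response and immediate early lists reach furthest to the lower side beside the 13 housekeeping genes, and the oxidative phosphorylation, TGF-beta and cholesterol lists to the higher side. Hybridization centring shifts all lists to the right, and the immediate early and housekeeping lists then have as many members higher as lower.

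Some genes differed between the lines more with mithramycin than in control. RIN2, a Rab5 exchange factor, read 8.08, 8.38 and 8.18 in TC32 and 3.83, 3.91 and 3.90 in TC71, where control arrays averaged 8.67 and 6.01. The line difference was -4.34 ± 0.08 with the drug and -2.65 in control, at 1 of its 2 sets. SLFN12 read 3.41, 3.43 and 3.19 in TC32 and 7.66, 7.64 and 7.57 in TC71, a difference of 4.28 against 2.66. RFXAP, part of the RFX complex of MHC class II promoters, stood at 3.65 against 2.19, and both lines were lower with the drug, from 6.45 to 3.24 in TC32 and from 8.64 to 6.89 in TC71. C1orf226, TET1, SNHG4 and KLHL29 differed between the lines in control by no more than 0.34 in size. TET1, which oxidizes methylated cytosine, averaged 6.95 in TC32 and 7.29 in TC71 there, and read 3.88, 3.92 and 4.02 against 5.70, 5.59 and 5.43 with mithramycin. The line differences with the drug were 1.89 for C1orf226 (control -0.10), 1.63 for TET1 (0.34), 1.39 for SNHG4 (0.12) and -1.51 for KLHL29 (-0.27). KLHL29, a BTB-kelch protein gene, had 4 sets that disagreed, from -1.51 to 0.50 with 1 called each way, and the change of their mean was -0.20 and not called. FUT4, which makes the Lewis x antigen, stood at 2.19 against 0.94 and LINC01198 at -1.69 against -0.44. The change of each named gene was called, with adjusted p from 1.44e-06 (C1orf226) to 0.00106 (FUT4). With the drug, RIN2 in TC71 and SLFN12, RFXAP and TET1 in TC32 lie below the medians of the arrays, so the sizes of these changes are rough.

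In the genes called in both conditions with opposite direction, the line differences were modest. TIPARP, a mono-ADP-ribosyltransferase, read 8.73, 8.88 and 8.89 in TC32 and 9.43, 9.44 and 9.44 in TC71 with mithramycin. TC71 was higher by 0.60 ± 0.06, whereas in control TC32 averaged 10.13 and TC71 9.50. POU3F2, a neural POU factor, was at 0.28 with mithramycin and -1.22 in control, and its 2 sets disagreed, at 0.28 and -0.40. DSEL (1.12 and -0.49), ZNF112 (0.96 and -0.33), ZNF107 (0.91 and -0.40), CCDC8 (0.82 and -0.42) and PLPP6 (0.78 and -0.65) had the same pattern, and in each the TC32 mean was lower with the drug than in its controls. Without the _x_at and _s_at sets the change of ZNF107 was 0.09 and not called. TRIM69 stood at 0.16 with mithramycin (adjusted p = 0.044) and -1.20 in control. That call was lost without any single mithramycin array except TC71 replicate 2 and without TC32 control replicate 1 or 3 or TC71 control replicate 2 (0.11 to 0.17), and the mean of its 3 sets was -0.81. Running the other way, SH3PXD2A, a podosome scaffold, stood at -0.94 and 0.40, and SLFN5 at -0.54 and 0.82. The sets of SLFN5 ran from -1.05 to 1.32, and their mean was 0.04.

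The line differences that shrank most with mithramycin were sought among genes called in control with a difference of at least 1 in size. A large difference in control is thus part of the choice. In most of these genes the level was lower in TC71. MAML2, a coactivator of Notch, averaged 7.23 in TC32 control and read 3.72, 4.16 and 4.04 with the drug. In TC71 it averaged 2.48 in control and read 2.50, 2.78 and 2.52, so the line difference went from -4.75 to -1.37. CCN2 averaged 11.04 in TC32 and 4.81 in TC71 in control, and read 10.21, 10.25 and 10.32 against 6.65, 6.55 and 6.40 with the drug. The change of 2.51 thus had a part in each line. SOX1, a neural SOX factor, stood at -6.15 against -8.37, at 1 of its 3 sets. ZNF521 (-2.44 against -4.70), the phosphodiesterase gene PDE7B (-1.89 against -4.01), SFMBT2 (-1.11 against -3.53), GBGT1 (-0.82 against -3.48) and the chemokine gene CXCL8 (-1.0 against -3.53) also differed less. TANC2, a postsynaptic scaffold, and UST, a uronyl sulfotransferase, were higher in TC71 by 0.82 against 3.03 and by 1.31 against 3.41. UST and MAML2 with the drug, and CXCL8 and SFMBT2 in TC71, lie at or below the medians of the arrays, so the sizes of these changes are rough.

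**Figure D5:**
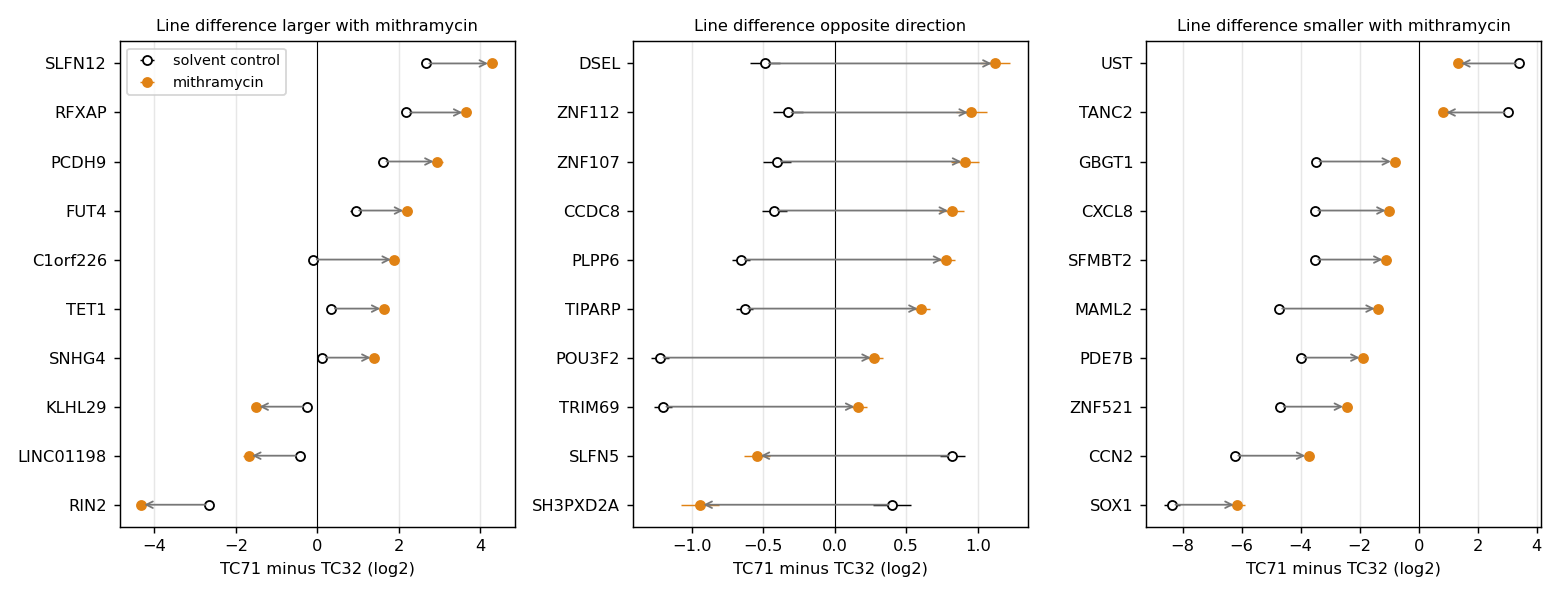
Line difference (TC71 minus TC32, log2, x axis) in solvent control (open points) and with mithramycin (filled points) for genes whose difference of line differences was called, with bars for the standard error. Left, the 10 genes with the largest growth, such as RIN2 (-2.65 to -4.34). Middle, 10 genes called in opposite directions, among them TRIM69, POU3F2 and SLFN5, whose probe sets disagreed. Right, 10 genes with the largest loss, such as MAML2 (-4.75 to -1.37).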

How the data were processed

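RNA of 12 samples was hybridized to 1-colour oligonucleotide arrays. The values are log2 expression per probe set as deposited, and RMA is named in the submitters' processing notes. Its version, settings and probe set definitions are not stated in the sources at hand. The method quantile-normalizes probe values, so a shift shared by most genes is largely removed.

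Of 54675 probe sets, 41091 had 1 gene symbol, 1801 several and 11721 none, and 62 were controls. Symbols were updated through Entrez identifiers in RefSeq (GRCh38.p14, 41037 matched). Genes of chromosome Y and XIST (59 sets) were left out. A model with 4 group means was fitted to all 12 arrays with limma 3.58.1 in R 4.3.3 (eBayes), and p-values were adjusted by Benjamini-Hochberg over 19740 genes, two-sided, called under 0.05. The fit was tested on simulated data.

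Named genes were the 15 highest and 15 lowest with a brighter-group mean of at least 6 and arrays that do not overlap, up to 4 per list and direction, 10 per class of changed differences and a fixed set. The class of smaller differences took only genes called in control with a difference of at least 1 in size. Some were left out for length. The 33 lists came from textbook knowledge. Members and lists were chosen with earlier results of these data known. The p-values measure the spread between the biological replicates the labels name. Alternatives were the treated arrays alone, a replicate block, the mean of probe sets, no _x_at or _s_at sets, a mean of at least 6, quantile normalization again, centring on housekeeping genes or hybridization controls, a beta-actin covariate, a variance trend, every probe set, and leaving out each array.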

Additional observations from a re-analysis of the deposited data

Results flagged for a closer look

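The line difference changed with mithramycin, by limma's test of the difference itself, for 91 of the genes named above. The values below are that difference of line differences (mithramycin minus control, log2), positive where TC71 gained on TC32. For 75 of the 91 genes the call was kept in each of the 12 fits that left out 1 array, and for 59 of them also under each other alternative run. It was lost in at least 1 of the 12 fits for ABCB1, ALDH1A1, CA2, CASP1, CCNG1, CENPE, COL5A2, CXCL14, FN1, FZD5, GSTM3, HOXD8, NEFL, PAPPA, S1PR3 and SESN1. It was lost under another alternative alone for ABCC1, CDKN1A, CENPF, FZD7, IGFBP5, KIT, KLHL29, NDUFB5, NFKBIA, SIX3, SLC7A11, SOX11, TENM1, TP53INP1, WNT5A and ZNF107. With the mean of probe sets the uncalled values included 0.33 for IGFBP5, 0.39 for SOX11, 0.17 for TP53INP1, -0.20 for KLHL29, 0.36 for ABCB1, -0.03 for GSTM3, 0.22 for S1PR3, -0.28 for TENM1 and 0.21 for NFKBIA. Without the _x_at and _s_at sets they were 0.08 for NFKBIA, 0.17 for FZD5 and 0.09 for ZNF107. With centring on housekeeping genes and on hybridization controls they were -0.23 and -0.22 for FZD7, -0.17 and -0.16 for NDUFB5, -0.29 and -0.27 for TENM1, -0.22 and -0.21 for ABCC1, -0.18 and -0.17 for CDKN1A, -0.32 and -0.30 for CASP1 and -0.37 and -0.35 for PAPPA. After quantile normalization again COL5A2 stood at 0.16, and with the beta-actin covariate ALDH1A1 at 0.27. The deposited scaling fixes the zero of these values: centring on housekeeping genes or on hybridization controls adds to each of them (the lines differed by 0.22 in the housekeeping median in control, although 8 of those 13 genes were called lower there, and by -0.30 in the hybridization controls with mithramycin).

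Among genes of signalling, the difference was 2.51 for CCN2, 2.06 for DKK1, 1.53 for LGR5, 1.03 for FZD5, 0.94 for NOG, 0.92 for BAMBI, 0.92 for TGFBI, 0.85 for TGFBR2, 0.81 for HEY1, 0.70 for ID2, 0.62 for KIT, 0.56 for IGFBP5, 0.37 for WNT5A and 3.38 for MAML2. It was -1.05 for IGF1R, -1.15 for GDF10, -0.46 for FZD7 and -0.59 for PAPPA. Among transcription and chromatin factors it was 2.22 for SOX1, 0.90 for SOX11, 1.63 for TBX5, 0.53 for ZIC1, 0.89 for SIX3, 1.50 for POU3F2, 0.81 for NKX2-2, 0.61 for HOXB2, 0.69 for HOXD13, 1.06 for HOXD4, 0.37 for HOXD8, 2.26 for ZNF521, 1.31 for ZNF107, 1.28 for ZNF112, 1.46 for RFXAP, 1.29 for TET1 and 2.42 for SFMBT2. It was -0.72 for HOXB3 and -1.19 for PAX7.

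Among immediate early, stress and p53 genes the difference was 1.77 for FOS, 1.08 for SGK1, 0.61 for ZFP36L2, 1.23 for TIPARP, 0.44 for ATF4, 0.76 for TRIB3, 0.43 for SLC7A11, 0.56 for DDIT4, 0.53 for SESN1, 0.64 for TP53INP1 and 0.34 for CCNG1. It was -0.40 for CDKN1A and -0.94 for TNFRSF10A. In the cell cycle and apoptosis it was 0.65 for PLK4, 0.37 for CENPE, 0.37 for CENPF, 0.55 for STAG2, 0.93 for BCL2L2, -0.72 for CCND1 and -0.54 for CASP1.

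Among secreted, matrix, adhesion and neural genes the difference was 1.23 for CXCL14, 2.52 for CXCL8, 1.15 for ADM, 0.65 for NPY1R, 0.35 for S1PR3, 0.35 for NFKBIA, 0.39 for FN1, 0.32 for COL5A2, 1.33 for PCDH9, -0.51 for TENM1 and 1.04 for NEFL. Among enzymes, transporters and others it was 0.73 for ABCB1, -0.44 for ABCC1, 0.44 for ALDH1A1, -0.31 for GSTM3, 0.47 for CA2, -0.40 for NDUFB5, 1.26 for FUT4, 2.66 for GBGT1, 1.61 for DSEL, -2.09 for UST, 2.12 for PDE7B, 1.43 for PLPP6, 1.62 for SLFN12, -1.36 for SLFN5, 2.0 for C1orf226, 1.24 for CCDC8, 1.36 for TRIM69, 1.27 for SNHG4, -1.68 for RIN2, -1.24 for KLHL29, -1.25 for LINC01198, -1.35 for SH3PXD2A and -2.21 for TANC2.

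Outside the gene probe sets, the 3' control set for 18S ribosomal RNA read 13.04 in TC32 and 12.83 in TC71 with mithramycin, above the 11.84 and 11.50 of the solvent controls. Each line difference of this set, -0.21 and -0.35, came from arrays that did not overlap (exact permutation p = 0.1, the smallest possible). Its part in the other values was not tested.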

How the results depend on the processing

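The counts are limited by 3 arrays per group and, for dim genes, by signal near background. Counts of genes called higher and lower in TC71 with mithramycin ran from 4904 to 5234 and from 4618 to 5532 over the 12 fits that left out 1 array, the 2-fold counts from 1485 to 1574 and from 958 to 1007, the control counts from 4997 to 5396 and from 4445 to 5109, and the positive and negative differences of line differences from 915 to 1364 and from 516 to 768. Between the control groups of the 2 lines, arrays of the same replicate number matched best for all 3 numbers, weakly (correlations of deviations from group means 0.052 to 0.117). In no other pair of groups did all 3 numbers match best. With the replicate number as a block 5208 and 5173 genes were called. Centring on hybridization controls gave 9247 higher and 2120 lower, 2406 at least 2-fold higher, and 2528 positive and 189 negative differences of line differences. Centring on housekeeping genes gave 3511 higher and 9542 lower in control and 2791 positive and 217 negative. The beta-actin covariate gave 797 positive and 407 negative. With genes of a mean of at least 6 alone there were fewer genes to test: 3088 lower, 835 and 548 at least 2-fold apart, and 3177 lower in control. With each probe set tested there were more: 9507 higher and 9976 lower, 2539 and 1791 at least 2-fold, 9587 and 9660 in control, and 2004 positive and 1116 negative. Of 4278 values of the 199 named genes with mithramycin, 4239 kept their call, 29 lost it, 1 gained it and 9 reversed. Without the _x_at and _s_at sets the reversed values were COL4A5 at -0.0498, EPHA3 at -0.045, EWSR1 at 0.37 and SLFN5 at 0.0209. With the mean of probe sets they were POU3F2 at -0.0638, SLFN5 at 0.0361 and TRIM69 at -0.81, and with hybridization centring EWSR1 at 0.10 and ID2 at 0.0623. Of the differences of line differences, GSTM3 (0.25) and SIX3 (-0.0122) reversed without the _x_at and _s_at sets and PAPPA (0.15) with the mean of probe sets. The causes were not tested.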

Other observations

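Imprinted genes, which are expressed from 1 parental copy, were also read. Of 27 measured, 8 were called higher and 11 lower in TC71 with mithramycin (9 and 5 with hybridization centring), and the difference of line differences was called for 1 in each direction. Of 16 fibroblast and mesenchymal markers, 6 were called higher and 7 lower, of 15 epithelial markers 4 and 5, of 12 blood cell markers 1 and 3, and of 12 endothelial markers 0 and 3 (1 and 3 at limma's unadjusted p under 0.05, 3 and 2 with hybridization centring). Of 15 Ewing sarcoma markers, 6 were called in each direction. Genes tested with several RefSeq promoter windows (3900) or without one (4381) were left out of the GC box shares.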
